A study of Mus musculus with 16 samples.

Results

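RNA-seq was used to compare mouse embryonic stem (ES) cells given 200 µM sodium arsenite for 2 h with untreated cells. The comparison rests on 4 of the 16 libraries of the series, 2 from untreated and 2 from arsenite-treated cells. They were chosen as the 4 columns of the one deposited table that holds both groups. Per the labels, all 4 were wild-type ES cells of the line E14Tg2a.IV, with C57BL/6 given as the strain. They were kept feeder-free on gelatin with serum and leukaemia inhibitory factor (LIF), and arsenite is the one difference the labels give. A second line, CCE, appears in the growth protocol with no statement of where it was used. Whether the replicates were independent cultures is not stated either, and the p-values therefore rest on a spread that may be technical. The wider study is about TRIM33 at PML nuclear bodies and its effect on Lefty genes, and arsenic is known to bind PML.

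Trivalent arsenic binds sulphur atoms in proteins and in glutathione. Cells are known to answer it on several fronts: NRF2, released from KEAP1, raises genes for glutathione and antioxidant enzymes, MTF1 raises metallothioneins, HSF1 raises chaperones, and phosphorylation of the initiation factor eIF2 slows translation while favouring ATF4. ES cells are held in the naive state by a network of transcription factors around OCT4 (gene Pou5f1), SOX2 and NANOG, which LIF and STAT3 support and which FGF, Nodal and WNT signals modulate. A level of RNA after a short exposure reflects both synthesis and decay.

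Levels are given in RPKM, reads scaled to gene length and to library depth, the unit of the deposited values, for the 2 untreated and then the 2 arsenite libraries, replicate 1 first. Differences are arsenite minus untreated on the log2(RPKM + 1) scale with their standard error (SE, n = 2 per group), so a difference of 1 is close to 2-fold for abundant genes and understates the fold of genes at low levels. A gene was called, and is said to have risen or fallen, at a Benjamini-Hochberg adjusted p under 0.05 in limma's moderated test across all genes. For each gene that is said to have risen or fallen, both arsenite libraries lay on one side of both untreated libraries. To be tested, a gene had to reach 1 RPKM in at least 2 of the 4 libraries. A gene under 1 RPKM in both libraries of a group passed only by the other group, which fixed the direction. Recovered depth was 46700000 to 48400000 reads per library, so 1 RPKM stands for 46.7 to 48.4 reads per kilobase. The marker genes of ES cells (Pou5f1, Sox2, Nanog, Zfp42 and Esrrb) summed to 2534 and 2499 RPKM untreated and 1167 and 1109 with arsenite, while 8 fibroblast markers, 6 of them under 1 RPKM in all 4 libraries, summed to 4.99 to 6.44. A wider list of 14 fibroblast genes had 6 tested, 4 called higher and 1 lower (median 0.64, and 0.40 scaled by quantiles), among them Vim, vimentin, at 52.4 and 51.4 RPKM untreated and 104 and 108 with arsenite (1.01 ± 0.04). The part of such cells in the results was not tested. In such bulk samples, fewer cells of a type and less RNA per cell cannot be told apart.

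Most of the transcriptome moved. Of 12136 genes tested, 67.7% were called, 40.7% higher and 27.0% lower, and the libraries of the 2 groups did not overlap for 84.5% of genes. A call alone therefore says little about a gene, and the size of a difference matters more: 5.03% of genes were called at least 2-fold higher (611 genes) and 2.18% at least 2-fold lower (265 genes), 7.22% in all. After quantile scaling, which gives each library the same distribution of values, 64.4% were called, 31.6% higher and 32.8% lower, and 404 genes (3.33%) were at least 2-fold higher against 360 (2.97%) lower. Both versions of the values gave the same direction for 6785 genes called in both and opposite directions for 14. Of the 611 genes, 610 were also called higher after quantile scaling, and all of the 265 were called lower.

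Quantile scaling moved genes by amounts that depended on their level. The summed RPKM was 463538 and 463729 in the untreated libraries and 436379 and 427289 with arsenite, and the 100 most abundant genes took 31.0% and 31.1% of it against 28.0% and 27.4%. Genes named as ribosomal proteins took 22.4% and 22.5% untreated and 18.5% and 17.7% with arsenite. As deposited, the median difference went from 0.32 for genes with a mean up to 2 RPKM to -0.17 for genes above 100. After quantile scaling those medians were 0.03 and -0.02. Transcript length behaved otherwise: genes whose longest transcript had up to 1000 bases had a median of -0.15 as deposited and -0.21 after scaling, and genes above 8000 bases 0.20 and 0.07. Exon number and the percentage of G and C bases in that transcript also kept a trend. After scaling the median ran from -0.13 for 1 exon to 0.11 above 20. It ran from -0.11 for up to 42% G and C to 0.07 above 54%. The median over all genes tested was 0.08 as deposited and -0.01 after scaling. Trimmed-mean scaling, which applies 1 factor per library, also gave a median of -0.01. Differences in the rest of the text are as deposited, with the scaled value beside them where it bears on a call. The word "scaled" alone means quantile scaling. Counts in a list stand against 40.7% higher and 27.0% lower over all genes, and 31.6% and 32.8% after quantile scaling.

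**Figure D1:**
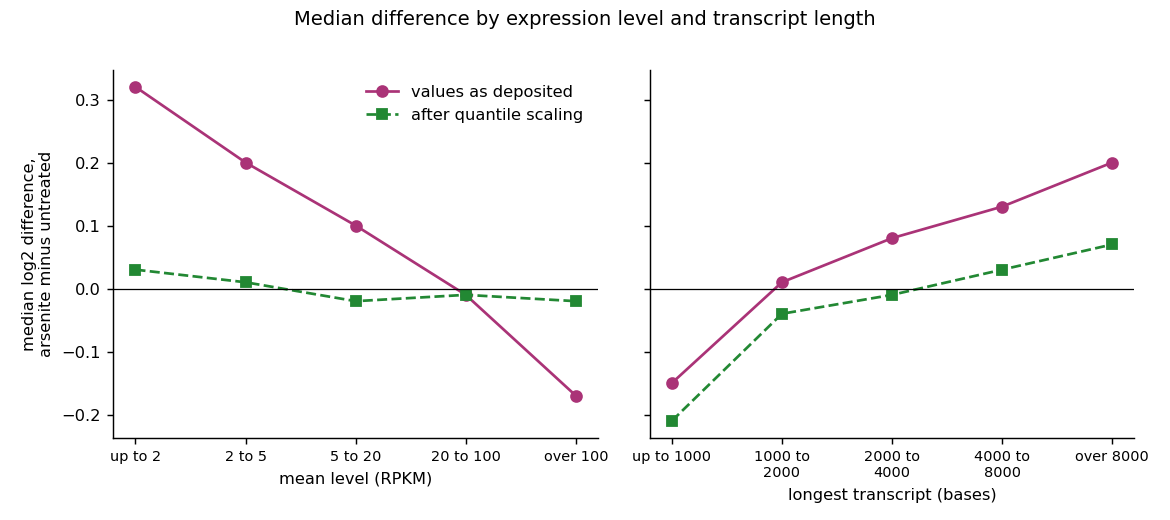
Median log2 difference (arsenite minus untreated, y axis) of genes grouped by mean RPKM (left) and by the length of the longest annotated transcript in bases (right), as deposited (circles, solid line) and after quantile scaling (squares, dashed line). The slope over expression level, from 0.32 to -0.17, was nearly flat after scaling, and the slope over length kept its direction, from -0.21 to 0.07.

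The 3 metallothionein genes tested rose, 2 of them at least 2-fold. Mt1, a metallothionein that holds zinc, cadmium and other metals through its cysteines, was at 232 and 189 RPKM untreated and 1013 and 922 with arsenite, a log2 difference of 2.20 ± 0.09 (adjusted p = 1.43e-06). Mt2, its neighbour and close relative, went from 486 and 431 to 1539.7 and 1416 RPKM (1.69 ± 0.07, adjusted p = 1.14e-06), and 45.5% of the 50-base words of its transcript also occur in 1 other gene, so its level is less certain. Both arsenite libraries stood far above both untreated libraries for each. The third metallothionein tested, Mt3, was low but also rose, from 2.298 and 1.75 to 4.05 and 4.04 RPKM (0.74 ± 0.11).

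Of 12 zinc transporters, 7 were higher and 1 lower. Slc30a1, which carries zinc out across the plasma membrane, rose from 7.44 and 7.18 to 18.7 and 18.8 RPKM (1.25 ± 0.06, adjusted p = 2.13e-06). The vesicular exporter Slc30a2 rose from 10.7 and 11.03 to 44.4 and 45.2 RPKM (1.95 ± 0.05). The importer Slc39a4 rose as well, from 16.6 and 17.3 to 80.4 and 76.7 RPKM (2.15 ± 0.05). The list of metal-response genes had 10 of 16 members called higher and 1 lower, with a median of 0.27, and after quantile scaling 7 higher and 3 lower (median 0.13). The one lower as deposited was the importer Slc39a14 (-0.31 ± 0.05), and Mtf1, which encodes the metal-sensing factor itself, was not called (3.56 and 3.77 to 3.19 and 3.92 RPKM, adjusted p = 0.749).

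MTF1 is known to bind metal response elements, and the promoter of Mt2 is shown with them. The stretch is RefSeq sequence of GRCm38.p6 at chr8:94172458-94172617 (plus strand), read 5′ to 3′ toward the start site, with matches to TGCNCNC on either strand in capitals.
Mt2: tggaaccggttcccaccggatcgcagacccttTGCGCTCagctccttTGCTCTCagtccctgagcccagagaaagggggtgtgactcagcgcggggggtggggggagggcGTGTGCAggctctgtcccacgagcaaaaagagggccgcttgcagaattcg
It holds 3 matches, the last on the minus strand, and between them lies a match to both TGACNNNGC and TGANTCA, the motifs searched for NRF2 and AP-1. The short motif TGCNCNC occurs in 60.6% of the 7298 tested genes with a single promoter entry and in 10 of 11 promoters (90.9%) of the metal-response list, which was compiled from known biology, so a high share is partly built in. A match is a run of letters, not a shown binding site or a cause.

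An iron gene had the largest rise among the 12136 genes tested. Slc40a1, which encodes ferroportin, the exporter of cellular iron, lies at chr1:45908068-45926523 (GRCm38, minus strand, 5 exons in its longest transcript). It was at 0.829 and 0.656 RPKM untreated and 25.02 and 24.5 with arsenite (3.89 ± 0.08, adjusted p = 1.63e-07). Slc40a1 passed the filter only by its arsenite level, which fixed its direction. Trf, the gene of the iron carrier transferrin, rose from 2.36 and 2.04 to 15.996 and 16.2 RPKM (2.42 ± 0.08), but 79.8% of its words recur in 1 other gene, which leaves its level uncertain. Steap3, which reduces iron in endosomes, rose from 4.17 and 4.88 to 24.9 and 25.1 RPKM (2.24 ± 0.07). Tfrc, the transferrin receptor, rose by much less, from 37.3 and 36.3 to 54.8 and 56.5 RPKM (0.58 ± 0.04).

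Heme breakdown and heme synthesis rose together. Hmox1, which opens the heme ring, went from 60.9 and 56.2 to 149 and 153 RPKM (1.35 ± 0.05, adjusted p = 7.15e-07). Blvrb, a biliverdin reductase, rose from 27.04 and 27.6 to 61.5 and 61.8 RPKM (1.15 ± 0.04). Slc48a1, which moves heme out of lysosomes, rose from 4.05 and 4.92 to 13.7 and 13.8 RPKM (1.43 ± 0.09). On the synthetic side, Alas1 at the first step rose from 9.12 and 8.53 to 15.1 and 15.6 RPKM (0.74 ± 0.06). Fech, which inserts the iron, rose from 10.8 and 10.8 to 21.1 and 21.6 RPKM (0.93 ± 0.05). All 8 listed genes of heme breakdown and synthesis were called higher as deposited. The call of Blvra (0.29 ± 0.09) was lost after scaling (0.13) and without the second untreated (0.24) or second arsenite library (0.22). Of the whole iron and heme list, 13 of 17 were higher and 1 lower. The lower one was Ftl1, a ferritin light chain gene, whose call was lost after scaling (-0.35 ± 0.04 as deposited, -0.06 scaled) and of whose words 90.6% recur in other genes. The iron-sensing regulators Aco1 and Ireb2 were not called, at -0.08 and -0.03, but were called lower after trimmed-mean scaling (-0.18 and -0.13).

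The regulators of NRF2 were called higher in 7 of 7 cases as deposited and 6 after scaling, with none lower. Bach1, whose protein competes with NRF2 for DNA, changed most, from 14.5 and 14.2 to 38.7 and 41.4 RPKM (1.42 ± 0.05, adjusted p = 8.33e-07). Keap1, the brake on NRF2, rose from 7.17 and 7.25 to 12.5 and 11.96 RPKM (0.69 ± 0.06). Sqstm1, an autophagy receptor that can displace KEAP1, rose from 259 and 245 to 449 and 459 RPKM (0.85 ± 0.04). Nfe2l2, which encodes NRF2, was called higher as deposited and after quantile scaling (46.4 and 44.3 to 54.4 and 51.8 RPKM, 0.22 ± 0.04) but not after trimmed-mean scaling (0.12). The small MAF partner Mafk was the member not called after quantile scaling (0.17).

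Glutathione synthesis followed at its first enzyme. Gclm, the modifier subunit of glutamate-cysteine ligase, rose from 30.9 and 28.6 to 109 and 121 RPKM (1.91 ± 0.06). The catalytic subunit Gclc rose from 15.3 and 15.8 to 33.1 and 35.4 RPKM (1.09 ± 0.05, adjusted p = 2.61e-06). Slc7a11, the cystine importer that feeds this pathway, was not called and stayed low, at 2.04 and 1.69 RPKM untreated and 2.12 and 2.23 with arsenite (0.15 ± 0.10, adjusted p = 0.223). Downstream, Gsto1, a glutathione transferase of the omega class, which can reduce arsenic compounds, rose from 42.1 and 39.6 to 142 and 143 RPKM (1.77 ± 0.04). Glrx, a glutaredoxin, rose from 6.18 and 6.41 to 17.3 and 18.04 RPKM (1.35 ± 0.06). Gsr, which restores reduced glutathione, rose from 28.9 and 29.9 to 47.3 and 48.3 RPKM (0.68 ± 0.04).

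Peroxidases that use glutathione went the other way. Gpx4, which repairs lipid peroxides, was at 608 and 629 RPKM untreated and 302 and 287 with arsenite (-1.07 ± 0.04, adjusted p = 1.14e-06). Gpx1 fell from 179 and 169 to 113 and 100.5 RPKM (-0.70 ± 0.06). Transcripts of other genes contain 61.7% of the 50-base words of Gpx4, which leaves its level uncertain, whereas Gpx1 shares none. These were the 2 falls in the glutathione list, against 9 rises among 14, with the same counts after scaling and medians of 0.52 and 0.49.

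The thioredoxin system was split. Srxn1, sulfiredoxin, rose from 12.9 and 11.6 to 36.3 and 35.7 RPKM (1.48 ± 0.06). Txnrd1, the cytosolic reductase, rose from 95.1 and 93.3 to 167 and 165 RPKM (0.81 ± 0.03). Txn1 rose from 127 and 130.9 to 193 and 190.4 RPKM (0.57 ± 0.04). Txnip, the inhibitor of thioredoxin and of glucose uptake, had one of the largest falls of the data, from 389 and 423 to 72.2 and 66.97 RPKM (-2.53 ± 0.05, adjusted p = 1.63e-07). The mitochondrial members divided too: Txnrd2 rose (0.54 ± 0.07) and Txn2 fell (-0.28 ± 0.04). In all, 7 of 13 rose and 5 fell.

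Suppliers of NADPH, the reducing power behind both systems, rose with no member called lower (9 of 11, median 0.31, and 0.36 scaled). The malic enzyme Me1 went from 5.66 and 6.69 to 19.3 and 20.4 RPKM (1.54 ± 0.08). The isocitrate dehydrogenase Idh1 went from 30.8 and 30.8 to 78.9 and 82.5 RPKM (1.36 ± 0.04). Pgd of the pentose phosphate path went from 66.8 and 65.3 to 98.9 and 104 RPKM (0.61 ± 0.04). Detoxification genes had 11 of 14 called higher and 0 lower as deposited (median 0.63), and 10 and 1 after scaling, of 18 listed. Nqo1, a quinone reductase, rose from 4.30 and 4.41 to 31.6 and 29.2 RPKM (2.55 ± 0.06). The carbonyl reductase Cbr3 rose from 5.86 and 6.36 to 38.9 and 40.5 RPKM (2.52 ± 0.06). The drug-efflux pump Abcb1b rose from 12.5 and 13.2 to 80.6 and 84.9 RPKM (2.60 ± 0.05, adjusted p = 1.63e-07). As3mt, the methyltransferase that metabolises arsenic, was not called as deposited (13.3 and 14.2 to 12.8 and 12.99 RPKM, -0.08 ± 0.06) and was called lower after quantile (-0.18) and trimmed-mean scaling (-0.18). The aquaglyceroporin Aqp3, a route for arsenite into cells, was not called, at 55.7 and 42.4 RPKM untreated and 43.9 and 47.5 with arsenite (adjusted p = 0.498), and was called lower without the second untreated library (-0.28).

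**Figure D2:**
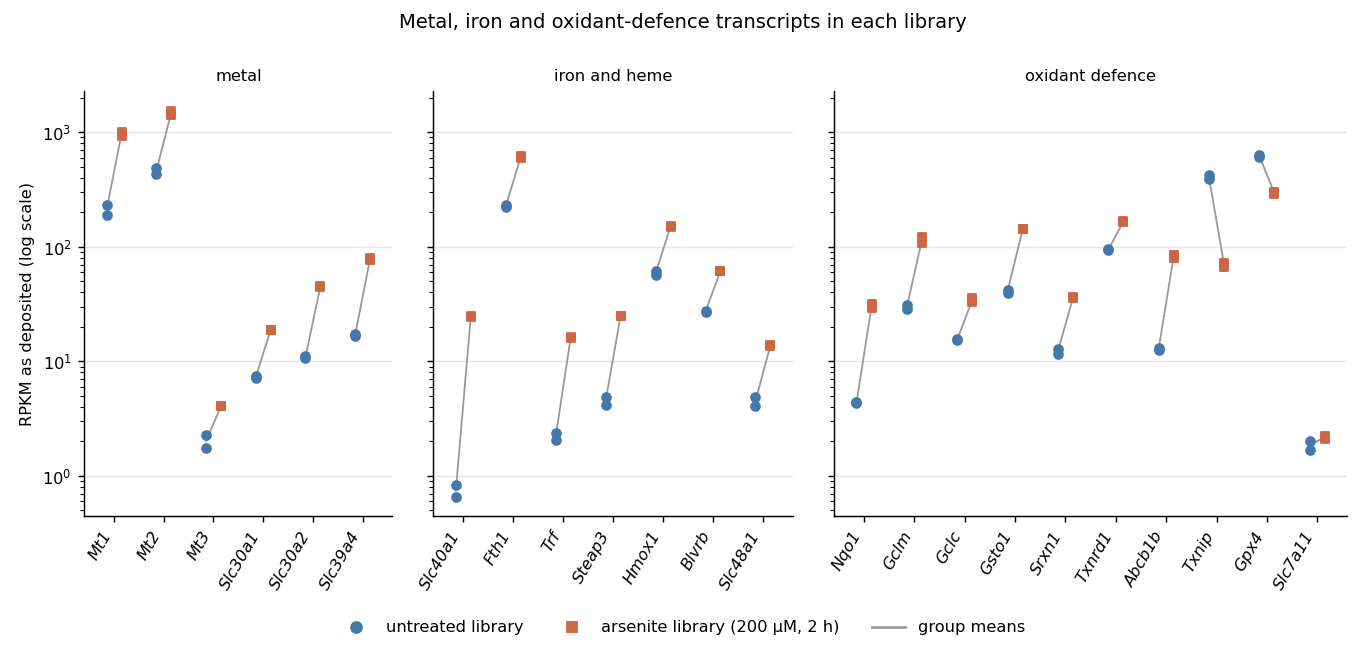
RPKM as deposited (y axis, log scale) of 23 genes of metal handling, iron and heme, and oxidant defence in each untreated (circles) and arsenite (squares) library, with lines joining the group means. Slc40a1 lay under 1 RPKM in both untreated libraries and at 25.02 and 24.5 with arsenite, Txnip and Gpx4 were lower with arsenite, and Slc7a11 was not called.

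The antioxidant response element bound by NRF2 was searched as TGACNNNGC in promoters of 250 bases before to 50 after the RefSeq start. Gclm and Prdx1 are shown because they are known NRF2 targets whose single promoter entry holds a match (capitals, here on the minus strand). Prdx1, a peroxiredoxin, was at 360.4 and 354 RPKM untreated and 403 and 389 with arsenite (0.15 ± 0.04), and its call was lost after trimmed-mean scaling (0.04), without the trend in limma's eBayes step and without the second untreated library (0.13). The stretches are chr3:122245387-122245466 (plus strand) for Gclm and chr4:116685429-116685508 (plus strand) for Prdx1.
Gclm: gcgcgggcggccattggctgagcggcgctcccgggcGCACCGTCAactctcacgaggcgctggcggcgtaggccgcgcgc
Prdx1: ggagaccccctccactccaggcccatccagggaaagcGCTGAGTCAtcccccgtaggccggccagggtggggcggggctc
In Gclm the match overlaps one to TGCNCNC and in Prdx1 one to the AP-1 motif TGANTCA. The motif was in 52 of 350 promoters (14.9%) of genes at least 2-fold higher and in 15.1% of all tested. The AP-1 letters were in 30 of those 350 (8.6%), in 4.1% of all tested and in 8.0% of all 22862 single-entry promoters, tested or not. The window is short, and absence of a match says only that these letters are not in it.

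Heat-shock genes changed in both directions. Of 40 tested, 21 were higher and 10 lower (24 and 7 after quantile scaling, 19 and 11 after trimmed-mean scaling), with a median of 0.21. Over all genes 40.7% were higher and 27.0% lower, with a median of 0.08. Cryab, a small heat-shock protein that holds unfolded proteins, changed most but from a low and uneven base, 0.756 and 1.74 to 9.31 and 8.70 RPKM (2.19 ± 0.19, adjusted p = 4.14e-05). Hspb8 rose from 20.7 and 20.7 to 44.3 and 46.9 RPKM (1.10 ± 0.05). Hspb1 rose from 627 and 618 to 1005 and 998 RPKM (0.69 ± 0.04), with 51.6% of its words recurring in 2 other genes. Another small member, Hspb6, fell from 8.47 and 7.62 to 3.66 and 3.62 RPKM (-0.96 ± 0.08, adjusted p = 3.78e-05).

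The strictly inducible HSP70 genes were low in all 4 libraries. Hspa1a was at 1.69 and 1.18 RPKM untreated and 1.71 and 1.64 with arsenite and was not called (0.14 ± 0.12, adjusted p = 0.323), the groups overlapping. Hspa1b went from 3.72 and 2.63 to 5.27 and 5.70 RPKM (0.65 ± 0.13, adjusted p = 0.00284). Of their words 66.3% and 62.3% recur in 4 other genes, so reads may have been lost or split between them. The constitutive HSP70 gene Hspa8 rose from 1052 and 1049 to 1377 and 1419 RPKM (0.41 ± 0.04). Of its words 52.7% are shared. Its nucleotide exchange partner Hsph1 rose from 76.6 and 76.2 to 107 and 109.7 RPKM (0.50 ± 0.04).

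Among partners of HSP70 and HSP90, Dnajb1 rose from 23.6 and 25.1 to 40.6 and 41.3 RPKM (0.73 ± 0.05). Dnaja1 rose from 39.5 and 39.7 to 59.9 and 58.5 RPKM (0.57 ± 0.04). Ahsa1, which activates HSP90, rose from 140.1 and 139 to 198 and 193 RPKM (0.48 ± 0.04). Bag3, often induced with the small heat-shock proteins, was not called (15.2 and 14.5 to 16.3 and 16.1 RPKM, adjusted p = 0.0851). In mitochondria, Hspa9 fell from 538 and 537 to 389 and 379 RPKM (-0.48 ± 0.04). The protease Lonp1 rose from 52.5 and 51.2 to 70.4 and 70.9 RPKM (0.44 ± 0.04). Hsf1, the regulator, was not called as deposited (-0.03 ± 0.04) and was called lower after trimmed-mean scaling (-0.13), and Hsf2 fell from 31.8 and 31.4 to 23.2 and 21.6 RPKM (-0.48 ± 0.05). The cytosolic chaperonin depended on the kind of scaling: 2 of its 8 subunits were higher and 3 lower as deposited. Quantile scaling gave 5 higher and 0 lower, and trimmed-mean scaling 0 higher and 4 lower.

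HSF1 binds inverted repeats of a short unit, searched as GAANNTTC. The 2 promoters below were chosen because they belong to one strongly expressed and one barely expressed target, at chr5:135887769-135887848 (plus strand) for Hspb1 and chr17:34959309-34959388 (minus strand) for Hspa1b, with matches in capitals.
Hspb1: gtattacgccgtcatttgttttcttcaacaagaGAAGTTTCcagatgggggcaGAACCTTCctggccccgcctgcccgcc
Hspa1b: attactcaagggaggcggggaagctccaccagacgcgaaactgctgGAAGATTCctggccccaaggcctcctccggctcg
Hspb1 has 2 matches in this stretch and Hspa1b 1. The motif was in 8 of 24 heat-shock promoters (33.3%), in 5.5% of all tested and in 4.9% of those at least 2-fold higher. This list too was compiled from known biology, so the share is partly built in.

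The ATF4 branch was lower. Of 15 factors and effectors, 14 were lower and 0 higher (median -0.80, and -0.87 scaled), against the 27.0% called lower over all genes. Atf4 itself, the factor that eIF2 phosphorylation favours in translation, was at 304 and 315 RPKM untreated and 155 and 149 with arsenite (-1.02 ± 0.04, adjusted p = 1.04e-06). Nupr1, a small stress-induced chromatin protein, fell from 244 and 239 to 40.6 and 41.8 RPKM (-2.52 ± 0.04). Chac1, which degrades glutathione, fell from 121 and 116 to 29.5 and 28.1 RPKM (-2.01 ± 0.04, adjusted p = 1.70e-07).

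Other effectors followed. Ddit4, an inhibitor of mTORC1, fell from 313 and 338 to 85.1 and 82.7 RPKM (-1.94 ± 0.05). The pseudokinase gene Trib3 fell from 102 and 100.8 to 45.2 and 43.4 RPKM (-1.18 ± 0.04). Ddit3, which encodes CHOP, fell from 43.9 and 43.5 to 24.9 and 24.4 RPKM (-0.80 ± 0.04). Atf3, a repressor usually induced by stress, fell from 12.8 and 11.9 to 6.08 and 5.33 RPKM (-0.995 ± 0.08). Sesn2, shared with NRF2 as a target, was the member not called as deposited (132 and 129 to 129 and 134 RPKM, adjusted p = 0.914), and it was called higher after scaling (0.12).

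Genes that supply amino acids were lower as well, 18 of 20 lower and 0 higher (median -0.95, and -0.82 scaled). The mitochondrial folate enzyme Mthfd2 fell from 169.8 and 169 to 59.0 and 58.7 RPKM (-1.51 ± 0.03). Asns, asparagine synthetase, fell from 388 and 393 to 211 and 194 RPKM (-0.95 ± 0.05). Psat1 of serine synthesis fell from 234 and 233 to 122 and 118 RPKM (-0.96 ± 0.04). Cth, which makes cysteine, fell from 165 and 169 to 77.1 and 73.9 RPKM (-1.13 ± 0.04, adjusted p = 6.89e-07).

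Amino acid transporters were called lower too, all 8 of them as deposited and after quantile scaling. Slc7a3, a carrier of arginine and lysine, fell from 82.6 and 82.7 to 33.5 and 32.1 RPKM (-1.31 ± 0.04). Slc7a5, a carrier of leucine and other large amino acids, fell from 207 and 204 to 105 and 106 RPKM (-0.95 ± 0.03). The members of the amino acid list not called were Cbs and Shmt1, at 0.11 and 0.03.

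The aminoacyl-tRNA synthetases, which load amino acids onto tRNA, were counted by compartment. Of the 20 cytosolic ones, 18 fell and 1 rose (median -0.38), and 15 and 1 did so after scaling. Of the 17 mitochondrial ones, 4 fell and 2 rose (median -0.04), and 7 and 1 after scaling. The difference between these lists was not tested. Mars, for methionine, fell from 159 and 151 to 87.4 and 89.96 RPKM (-0.80 ± 0.04). Yars, for tyrosine, fell from 141 and 141 to 84.6 and 82.7 RPKM (-0.75 ± 0.04). Aars, for alanine, fell from 226 and 219.6 to 138 and 140.0 RPKM (-0.68 ± 0.04). Qars, for glutamine, was the one called higher (66.4 and 69.0 to 75.2 and 73.8 RPKM, 0.14 ± 0.04), a call lost after trimmed-mean scaling (0.03), without the trend in eBayes, and without the first untreated (0.11) or the first arsenite library (0.12).

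**Figure D3:**
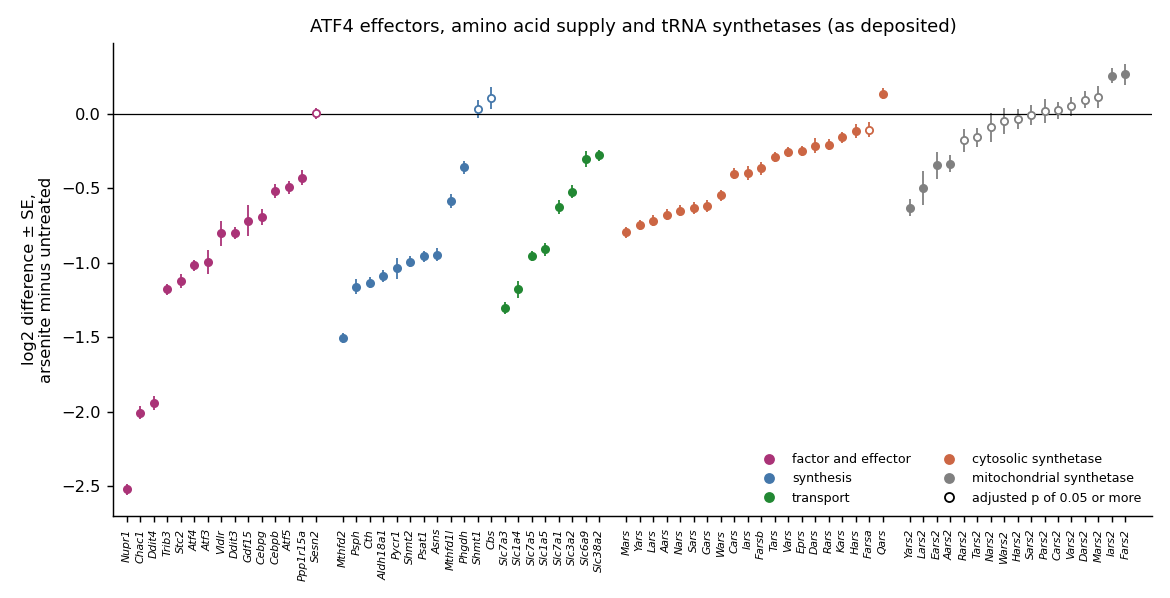
Log2 difference (arsenite minus untreated, as deposited, y axis, bars are the SE) of each tested gene of 5 groups along the x axis, sorted within each: factors and effectors, synthesis, transport, cytosolic synthetases and mitochondrial synthetases. Filled points were called and open points were not, and the mitochondrial synthetases lie around 0 while nearly all genes of the other groups lie below it.

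ATF4 with a C/EBP partner binds a composite element, searched as TGATGNAA on both strands. The 7 promoters below were chosen to show it in effectors (Chac1 and Nupr1), in the degradation factor gene Herpud1, in synthetases (Aars and Tars), in Asns and in the uncalled Slc7a11. Matches are in capitals and, apart from Asns and the first in Slc7a11, lie on the minus strand. The stretches are chr2:119351012-119351111 (plus strand), chr7:126625521-126625620 (minus strand), chr8:94386279-94386378 (plus strand), chr8:111033692-111033791 (plus strand), chr15:11399659-11399758 (minus strand), chr6:7693210-7693309 (minus strand) and chr3:50443614-50443713 (minus strand), in that order.
Chac1: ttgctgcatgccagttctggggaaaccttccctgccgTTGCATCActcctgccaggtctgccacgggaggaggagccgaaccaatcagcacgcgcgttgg
Nupr1: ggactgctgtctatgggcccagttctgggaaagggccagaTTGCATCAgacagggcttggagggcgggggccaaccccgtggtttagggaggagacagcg
Herpud1: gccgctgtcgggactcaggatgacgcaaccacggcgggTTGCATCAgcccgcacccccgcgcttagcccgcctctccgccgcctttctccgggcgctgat
Aars: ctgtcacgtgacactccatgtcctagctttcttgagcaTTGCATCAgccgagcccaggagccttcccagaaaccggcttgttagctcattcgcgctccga
Tars: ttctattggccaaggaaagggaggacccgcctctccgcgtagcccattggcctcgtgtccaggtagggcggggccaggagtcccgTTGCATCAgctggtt
Asns: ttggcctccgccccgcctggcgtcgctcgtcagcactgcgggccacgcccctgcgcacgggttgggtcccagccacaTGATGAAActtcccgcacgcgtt
Slc7a11: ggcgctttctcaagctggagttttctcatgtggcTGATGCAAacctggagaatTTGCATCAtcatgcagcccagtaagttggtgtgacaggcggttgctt
Of the genes shown, Tars fell from 130.8 and 127 to 105 and 105 RPKM (-0.29 ± 0.04). Herpud1 fell from 42.3 and 38.7 to 17.7 and 17.2 RPKM (-1.17 ± 0.05), while Slc7a11, with 2 matches, was not called. In Asns the match overlaps one to GAANNTTC. The element was in 4 of 12 effector promoters (33.3%), 3 of 13 (23.1%) of the amino acid list and 5 of 12 (41.7%) of cytosolic synthetases, against 2.0% of all tested. It was in 9 of 142 (6.3%) of genes at least 2-fold lower and 10 of 350 (2.9%) of those at least 2-fold higher. Among all 22862 single-entry promoters, tested or not, 4.2% held it. The lists hold known ATF4 targets, so their shares are partly built in, and the 2 fold-based groups were not compared by a test.

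The kinases and phosphatases around eIF2 had 2 of 7 higher and 2 lower as deposited, and 1 and 2 after scaling. Eif2ak1, the kinase known to sense arsenite and heme, was at 19.98 and 20.03 RPKM untreated and 22.3 and 25.3 with arsenite (0.24 ± 0.06), and its call was lost after trimmed-mean scaling (0.14) and without the second arsenite library (0.15). Both regulatory subunits that reverse eIF2 phosphorylation fell. Ppp1r15a went from 29.1 and 30.8 to 21.8 and 22.2 RPKM (-0.43 ± 0.05). Ppp1r15b went from 81.6 and 79.3 to 51.2 and 51.1 RPKM (-0.64 ± 0.04, adjusted p = 6.64e-06). Initiation factors had 34 of 52 lower and 3 higher after trimmed-mean scaling. As deposited 26 were lower and 12 higher, and 20 and 11 after quantile scaling. Without the first arsenite library 7 were higher. Eif4ebp1, a repressor of cap-dependent initiation and another ATF4 target, fell from 433 and 420.1 to 284 and 279 RPKM (-0.60 ± 0.04). Eif1, a start-codon factor, fell from 685 and 645 to 401 and 364 RPKM (-0.80 ± 0.06). Of the 14 stress granule genes, 10 were lower and 1 higher as deposited and after trimmed-mean scaling, and 6 and 3 after quantile scaling. G3bp2, a granule scaffold, fell furthest, from 106 and 112 to 63.8 and 63.4 RPKM (-0.76 ± 0.04).

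Genes of protein folding in the endoplasmic reticulum (ER) were lower more often than higher, 12 and 6 of 25 (11 and 4 after scaling), with small differences. Without the second arsenite library 3 were higher. The chaperone gene Hspa5, which encodes BiP, fell from 141 and 147 to 118 and 120.03 RPKM (-0.27 ± 0.04). Hyou1 fell from 66.2 and 66.8 to 39.96 and 41.7 RPKM (-0.69 ± 0.04). Hsp90b1, the ER form of HSP90, was called lower as deposited (222 and 233 to 209.9 and 211 RPKM, -0.11 ± 0.04) but not after scaling (0.06), nor without the second untreated (-0.08) or either arsenite library (-0.11 and -0.12). Xbp1, the factor activated by IRE1 splicing, fell from 44.8 and 43.8 to 32.8 and 31.9 RPKM (-0.44 ± 0.04). Ern1, the IRE1 gene, rose from 2.79 and 2.51 to 3.97 and 4.53 RPKM (0.52 ± 0.09). Syvn1 of ER degradation rose from 13.1 and 13.1 to 19.5 and 18.2 RPKM (0.49 ± 0.06). Pdia3, a disulphide isomerase, rose from 144 and 140.1 to 189 and 192 RPKM (0.42 ± 0.04).

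The ER stress response element, to which ATF6 binds with NF-Y, is longer and rarer, and was searched as CCAAT and CCACG with 9 bases between them. It is shown in the 2 main chaperone promoters, at chr2:34771970-34772089 (plus strand) for Hspa5 and chr10:86705515-86705674 (minus strand) for Hsp90b1, with matches in capitals.
Hspa5: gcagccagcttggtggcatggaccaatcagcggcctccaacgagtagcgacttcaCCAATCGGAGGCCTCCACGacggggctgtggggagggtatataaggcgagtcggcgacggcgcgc
Hsp90b1: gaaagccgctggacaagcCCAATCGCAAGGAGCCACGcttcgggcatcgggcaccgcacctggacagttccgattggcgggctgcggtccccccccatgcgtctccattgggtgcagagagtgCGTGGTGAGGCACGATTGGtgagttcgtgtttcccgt
Hsp90b1 has 2 matches, the second on the minus strand. The element was in 9 of 20 promoters of the ER list (45.0%) and in 14 of 7298 promoters tested (0.2%). It was in 0 of the 350 promoters of genes at least 2-fold higher and 0 of the 142 at least 2-fold lower. The ER list holds known targets, so its share is partly built in.

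Genes of sugar metabolism fell at several steps. Hk2, the inducible hexokinase, went from 54.6 and 56.5 to 23.2 and 22.9 RPKM (-1.23 ± 0.04, adjusted p = 6.96e-07). Pfkl, a phosphofructokinase subunit, fell from 82.9 and 84.2 to 43.1 and 45.5 RPKM (-0.90 ± 0.04). The muscle-type subunit Pfkm rose from 6.41 and 6.76 to 17.1 and 16.98 RPKM (1.25 ± 0.06). Tpi1 fell from 232 and 229 to 112 and 111.2 RPKM (-1.04 ± 0.03). Ldha, which turns pyruvate into lactate, fell from 339 and 341 to 149 and 158 RPKM (-1.14 ± 0.04). Of 17 glycolysis genes tested, 10 fell and 4 rose (median -0.55). After quantile scaling the counts were 9 and 6 (median -0.40), and after trimmed-mean scaling 12 and 3 (median -0.63). The glucose carrier Slc2a1 was not called as deposited (-0.03 ± 0.04) and was called in opposite directions by the scalings, higher after quantile (0.12) and lower after trimmed-mean scaling (-0.14). Slc16a3, which exports lactate, fell from 25.4 and 28.3 to 10.8 and 11.7 RPKM (-1.19 ± 0.07). Gapdh gave no stable value (13.2 and 19.6 to 6.97 and 28.5 RPKM). Its difference was 0.79 without the first arsenite library and -1.10 without the second, and 27.8% of its words recur in 218 other genes.

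Genes that hypoxia-inducible factor (HIF) is known to raise were lower in 9 of 12 cases tested, of 14 listed (median -0.65, and -0.85 scaled), with the same count after scaling. Ndufa4l2, a mitochondrial protein induced by hypoxia, lies at chr10:127514967-127517154 and had the largest fall of the 12136 genes, from 14.1 and 17.3 to 0.621 and 0.974 RPKM (-3.22 ± 0.13). It passed the filter only by its untreated level, which fixed its direction. Vegfa, the angiogenic growth factor, fell from 31.5 and 38.1 to 15.2 and 15.1 RPKM (-1.14 ± 0.08, adjusted p = 2.01e-05). P4ha1, which hydroxylates collagen, fell from 12.4 and 11.8 to 5.39 and 5.88 RPKM (-0.98 ± 0.07). P4ha2 was the exception that rose (3.94 and 5.41 to 7.06 and 6.89 RPKM, 0.50 ± 0.12, and 0.31 without the first untreated library). Hif1a RNA was not called as deposited (47.5 and 46.9 to 46.6 and 46.5 RPKM, -0.02 ± 0.04) and was called lower after trimmed-mean scaling (-0.12). The core letters ACGTG bound by HIF, which overlap many other motifs, were in 6 of 6 promoters of the targets with a single entry and in 26.6% of all tested, a share that is partly built in because the list holds known targets.

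Nuclear genes of the respiratory chain were more often lower than higher as deposited. In complex I, 21 of 36 were lower and 5 higher (median -0.14, and -0.08 scaled), 3 of these without the second untreated library. In complexes II to V, trimmed-mean scaling gave 26 of 39 lower and 3 higher. As deposited 20 were lower and 7 higher, and 16 and 15 after quantile scaling. Without the first library of either group 4 were higher. The 2 at least 2-fold lower were small subunits of ATP synthase, Atp5k (147 and 157 to 47.7 and 47.5 RPKM, -1.65 ± 0.04) and Atp5e (162 and 165 to 81.4 and 79.4 RPKM, -1.01 ± 0.04). Short transcripts had a lower median throughout, as given above, and the part of length in these lists was not tested.

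Ribosomal protein genes were lower as deposited, 75 of 82 with 0 higher (median -0.40). After quantile scaling 47 were lower and 12 higher (median -0.12), but after trimmed-mean scaling 78 were lower and 0 higher (median -0.5). The size therefore depends on the scaling. Rps29 fell from 1231 and 1230.5 to 379.5 and 293 RPKM (-1.88 ± 0.10, and -1.65 scaled). Rpl38 fell from 862 and 941 to 397 and 309 RPKM (-1.36 ± 0.10). Rps28 fell from 1717 and 1740.4 to 883 and 726 RPKM (-1.11 ± 0.08). Of their words 26.5%, 40.2% and 6.0% recur in other genes.

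Host RNAs of small nucleolar RNAs (snoRNAs), whose introns carry the guides of ribosomal RNA modification, fell as deposited and after quantile scaling, 11 of 12 tested (median -0.84, and -0.89 scaled). Snhg12 fell from 62.9 and 64.3 to 17.7 and 17.7 RPKM (-1.79 ± 0.04). Snhg1 fell from 409.9 and 397 to 139 and 112 RPKM (-1.69 ± 0.09, adjusted p = 4.02e-06). Snhg5 fell from 41.8 and 42.5 to 15.4 and 12.2 RPKM (-1.55 ± 0.09). Snhg11 was the one that rose (4.30 and 6.20 to 8.17 and 8.40 RPKM, 0.59 ± 0.13, and 0.37 without the first untreated library). Nucleolar factors had 12 of 17 lower and 0 higher as deposited, 12 and 2 after quantile scaling, and 15 and 0 after trimmed-mean scaling. Dkc1, the pseudouridine synthase, fell most, from 115 and 111.5 to 69.4 and 65.6 RPKM (-0.74 ± 0.04).

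**Figure D4:**
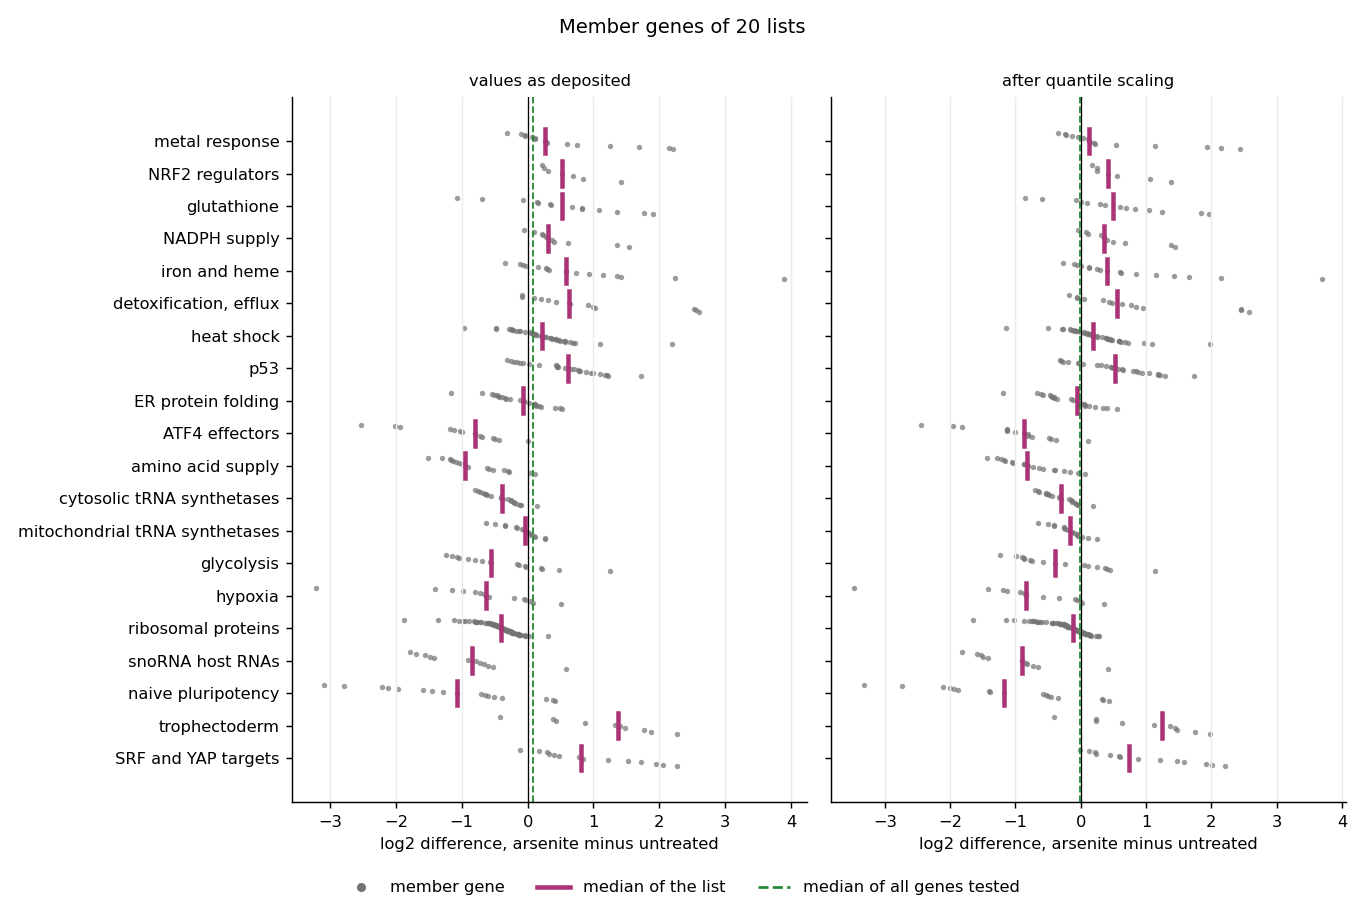
Log2 difference (arsenite minus untreated, x axis) of each tested member (points) of 20 gene lists (rows), as deposited (left) and after quantile scaling (right), with the list median as a bar and the median of all genes tested as a dashed line (0.08 and -0.01). NRF2 regulators lie wholly to the right of 0 and amino acid supply almost wholly to the left in both panels, whereas the ribosomal protein median moves from -0.40 to -0.12.

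The naive pluripotency factors had a lower median than the core ones (-1.06 and -0.47), a difference between lists that was not tested. Of 17 naive genes, 14 fell, 9 at least 2-fold, and 3 rose (median after scaling -1.18). Prdm14, a regulator also of germ cells, fell furthest, from 13.2 and 12.3 to 0.627 and 0.604 RPKM (-3.09 ± 0.08). It passed the filter only by its untreated level, which fixed its direction. Klf4, at chr4:55527143-55532466, was at 169 and 159 RPKM untreated and 23.98 and 21.95 with arsenite (-2.79 ± 0.05, adjusted p = 1.63e-07). Klf2, a partly redundant factor, fell from 318 and 296.2 to 70.9 and 60.8 RPKM (-2.21 ± 0.07). Klf5, the third of the trio, fell by less, from 269.6 and 248 to 159.8 and 156 RPKM (-0.71 ± 0.05). Tcl1, a cofactor of AKT, fell from 64.4 and 64.4 to 17.1 and 14.4 RPKM (-1.97 ± 0.07). The DNA demethylase Tet2 fell from 13.2 and 14.1 to 4.94 and 5.14 RPKM (-1.28 ± 0.07), whereas the list of DNA methylation genes that it also belongs to had 3 of 8 higher and 3 lower.

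Not all of the network moved that way. Esrrb fell from 236 and 232 to 153 and 156 RPKM (-0.60 ± 0.04), a smaller difference than that of Nanog (273 and 269 to 51.6 and 45.1 RPKM, -2.47 ± 0.06), and Tfcp2l1, Gbx2 and Pecam1 rose (0.28, 0.39 and 0.42). In the core list 8 of 11 fell and 3 rose. Sox2 fell from 557 and 558 to 304 and 295 RPKM (-0.89 ± 0.04). Pou5f1 fell from 839.8 and 832 to 513 and 478 RPKM (-0.75 ± 0.05). Factors of the formative state, which follows the naive one, had 4 of 13 members higher and 6 lower, with 2 higher without the second untreated or the first arsenite library. Foxd3 fell from 14.9 and 13.1 to 1.88 and 1.61 RPKM (-2.45 ± 0.09, adjusted p = 1.01e-06). Zic2 fell from 32.3 and 32.2 to 5.76 and 5.65 RPKM (-2.31 ± 0.05). Otx2 fell from 47.8 and 49.3 to 30.9 and 26.9 RPKM (-0.73 ± 0.06). Fgf5, the usual formative marker, did not reach 1 RPKM in 2 libraries and was not tested.

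The LIF pathway was lower from receptor to target, 8 of 10 genes with 2 higher (7 and 1 after scaling). Lifr, its receptor, fell from 12.5 and 12.4 to 5.47 and 5.74 RPKM (-1.03 ± 0.06). The co-receptor Il6st fell from 25.2 and 26.8 to 13.2 and 13.7 RPKM (-0.90 ± 0.05). The transducer Stat3 fell from 46.7 and 45.8 to 31.7 and 32.9 RPKM (-0.51 ± 0.04). Among targets, Bcl3 fell from 38.2 and 39.2 to 16.5 and 16.1 RPKM (-1.20 ± 0.05, adjusted p = 1.02e-06). Socs3, the feedback inhibitor, fell from 65.4 and 66.8 to 42.4 and 41.5 RPKM (-0.64 ± 0.04). Jak1, the kinase, rose (13.7 and 15.3 to 17.6 and 18.2 RPKM, 0.29 ± 0.07).

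In FGF signalling the 3 ligands tested fell and the 4 receptors were called higher as deposited. Of these, Fgf15 and Fgf17 passed the filter only by their untreated levels and Fgfr3 only by its arsenite level, which fixed their directions. Fgf4, the autocrine ligand of ES cells, fell from 57.3 and 59.6 to 11.7 and 10.9 RPKM (-2.28 ± 0.05). Fgf17 fell from 5.03 and 4.003 to 0.456 and 0.421 RPKM (-1.93 ± 0.12). Fgf15 fell from 2.37 and 2.56 to 0.4495 and 0.670 RPKM (-1.15 ± 0.11, adjusted p = 7.86e-05). Fgfr2 rose from 4.84 and 5.002 to 21.1 and 22.02 RPKM (1.93 ± 0.06). Fgfr4 rose from 2.68 and 2.88 to 5.86 and 5.97 RPKM (0.87 ± 0.08). Fgfr1, the most abundant receptor, was at 21.8 and 20.9 untreated and 23.3 and 24.7 RPKM with arsenite (0.16 ± 0.05), a call lost after scaling (0.12) and without the second library of either group (0.13 and 0.12). The call of Fgfr3, low in all 4 libraries (0.703 and 0.651 to 1.37 and 1.42 RPKM, 0.51 ± 0.10), was also lost after quantile scaling (0.19). Fgfbp1, a carrier that releases FGFs from matrix, rose from 6.01 and 4.74 to 84.3 and 80.2 RPKM (3.71 ± 0.09) and lies at chr5:43978858-43981779 in a single exon.

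Feedback genes of the same pathway were mixed, 6 of 10 higher and 3 lower. The phosphatase gene Dusp4 rose from 31.7 and 29.3 to 59.7 and 57.1 RPKM (0.92 ± 0.05). Spry1 rose from 13.4 and 12.4 to 24.6 and 24.4 RPKM (0.88 ± 0.06). Spry4 fell from 46.2 and 45.3 to 31.8 and 29.9 RPKM (-0.56 ± 0.05). The target Etv5 fell from 151 and 148 to 88.3 and 84.2 RPKM (-0.79 ± 0.04, adjusted p = 3.02e-06). Immediate early genes were mixed as well. Egr1 fell from 18.95 and 15.7 to 5.07 and 3.74 RPKM (-1.77 ± 0.13). Mycn, a gene of the MYC family, fell from 198 and 194 to 80.0 and 73.2 RPKM (-1.35 ± 0.05). Jun rose from 7.52 and 6.33 to 13.4 and 12.7 RPKM (0.83 ± 0.08). Of 23 tested, 10 fell and 6 rose, against 27.0% lower and 40.7% higher over all genes.

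Nodal signalling, to which Lefty1 and Lefty2 belong as secreted inhibitors, had lower levels of these inhibitors and of its co-receptor, with the ligand not called. Lefty2 was at 80.5 and 72.5 RPKM untreated and 10.6 and 10.7 with arsenite (-2.73 ± 0.06), and Lefty1 at 105 and 92.8 RPKM untreated and 36.5 and 35.1 with arsenite (-1.44 ± 0.06, adjusted p = 1.45e-06). Of the words of Lefty1, 17.9% recur in 1 other gene, and of those of Lefty2, 11.6% in 2. Nodal was not called (46.6 and 45.04 to 51.5 and 45.99 RPKM, 0.09 ± 0.06, adjusted p = 0.222) but was called higher without the second arsenite library (0.17). The co-receptor Tdgf1 fell from 486 and 497 to 92.6 and 82.4 RPKM (-2.48 ± 0.06). The activin subunit Inhbb fell from 7.37 and 9.04 to 1.34 and 1.22 RPKM (-2.01 ± 0.11).

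Inside the cell, Foxh1, the DNA-binding partner of SMAD2 and SMAD3, fell from 33.1 and 34.1 to 19.6 and 15.5 RPKM (-0.91 ± 0.09, adjusted p = 0.000108). Smad2 was not called (0.04 ± 0.06), Smad3 was called as deposited (0.25) but not after scaling (0.06), nor without the second untreated (0.18) or either arsenite library (0.20 and 0.30), and Smad4 rose (0.27 ± 0.05). Not every target of the pathway fell with the Lefty genes. The feedback gene Smad7 rose from 26.0 and 26.9 to 47.3 and 48.3 RPKM (0.83 ± 0.04). Pmepa1 rose from 7.43 and 7.45 to 11.48 and 12.02 RPKM (0.59 ± 0.06). Skil was not called (0.07 ± 0.05). In all, 8 of 22 genes were lower and 4 higher, and 13 and 3 after scaling.

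Targets of BMP, the other SMAD branch, were higher in 4 of 5 cases as deposited, and in 3 after quantile or trimmed-mean scaling. Id4 was called lower as deposited (-0.31 ± 0.12), but not without the first untreated (-0.21) or the first arsenite library (-0.19). Its call was also lost with a pseudocount of 0.1, without the filter on low values, with the replicate number as a block and without the trend in eBayes. Id1, an inhibitor of bHLH factors, went from 58.1 and 54.1 to 102 and 101.4 RPKM (0.85 ± 0.04). Id2 went from 33.9 and 27.4 to 65.4 and 63.97 RPKM (1.06 ± 0.09). Id3 went from 29.2 and 26.5 to 52.4 and 51.9 RPKM (0.88 ± 0.05, adjusted p = 7.43e-06). Smad6, the feedback inhibitor, rose furthest, from 1.79 and 1.67 to 10.1 and 9.83 RPKM (2.01 ± 0.08). Bmp4, the ligand, was not called as deposited (23.98 and 23.2 to 22.7 and 21.99 RPKM, -0.08 ± 0.05) and was called lower after trimmed-mean scaling (-0.18). Of 15 tested genes 11 were higher and 1 lower, and 7 and 1 after scaling, of 19 listed.

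Of 21 WNT genes tested, 9 were higher and 5 lower, and 8 and 7 after scaling. The shares over all genes were 40.7% and 27.0%, and 31.6% and 32.8% after scaling. The ligand gene Wnt7b rose from 1.05 and 1.10 to 10.3 and 10.47 RPKM (2.46 ± 0.08). Wnt6 rose from 0.767 and 2.01 to 10.2 and 10.6 RPKM (2.31 ± 0.21), with unequal untreated libraries. Sfrp1, a secreted inhibitor, fell from 14.1 and 13.6 to 0.953 and 1.07 RPKM (-2.89 ± 0.08). Porcn, the enzyme that acylates WNT proteins, fell from 5.47 and 7.03 to 3.35 and 3.87 RPKM (-0.65 ± 0.12). The target Axin2 rose from 3.41 and 3.17 to 5.91 and 5.73 RPKM (0.67 ± 0.08). The repressor Tcf7l1 fell from 28.5 and 27.9 to 16.2 and 17.1 RPKM (-0.73 ± 0.05, adjusted p = 1.44e-05), and the targets Notum and Znrf3 were not called.

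Marker genes of other cell lineages were mostly low. Trophectoderm markers had 9 of 10 tested called higher (7 after scaling) and 1 lower, but 13 were listed, and a member under 1 RPKM untreated entered the test only by its arsenite level. Gata3, a trophectoderm factor, went from 0.404 and 0.358 to 5.25 and 6.11 RPKM (2.27 ± 0.10). Hand1 went from 0.488 and 0.529 to 4.17 and 4.16 RPKM (1.77 ± 0.09). Tfap2c, already expressed, fell from 58.3 and 59.3 to 43.4 and 43.6 RPKM (-0.42 ± 0.04, adjusted p = 5.28e-05). The defining markers Cdx2 and Elf5 did not pass the filter. The 5 fixed markers summed to 2.56 and 2.61 RPKM untreated and 15.8 and 16.3 with arsenite.

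For primitive endoderm the sums were 7.13 and 6.91 against 10.6 and 11.501 RPKM, with Sox17 and Pdgfra under the filter. Gata6, which passed the filter only by its arsenite level, went from 0.839 and 0.746 to 2.54 and 2.85 RPKM (1.04 ± 0.10). The basement membrane gene Col4a1 rose from 5.90 and 6.68 to 16.3 and 17.6 RPKM (1.30 ± 0.08). Another, Lamc1, fell from 76.1 and 75.0 to 49.8 and 52.3 RPKM (-0.56 ± 0.04). Primitive streak markers summed to 3.54 and 4.09 against 12.3 and 13.9, with Eomes the highest (2.31 and 2.31 to 10.3 and 11.3 RPKM, 1.83 ± 0.08). Eomes made up most of each sum, and 3 of the 5 streak markers were under 1 RPKM in all 4 libraries. Of 11 primitive streak genes listed, 2 were tested and 2 called higher. Of 10 neuroectoderm markers 6 were tested, with 2 higher and 3 lower (1 and 3 after scaling). Pax6 fell from 7.33 and 8.15 to 3.08 and 2.69 RPKM (-1.17 ± 0.09). Sox1, which passed only by its untreated level, went from 2.54 and 2.13 to 0.943 and 0.714 RPKM (-0.87 ± 0.12). Map2 rose from 1.72 and 1.68 to 3.02 and 3.32 RPKM (0.63 ± 0.09). The call of Nes (3.82 and 3.24 to 4.88 and 4.73 RPKM, 0.36 ± 0.09) was lost after scaling (0.19). The 4 two-cell-like markers were under 1 RPKM in all 4 libraries. Whether such levels come from few cells or from many was not measured.

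Genes of the actin cytoskeleton that SRF and YAP are known to raise were higher in 13 of 14 cases as deposited and 11 after scaling. Cyr61 rose from 10.2 and 9.92 to 46.3 and 44.1 RPKM (2.06 ± 0.05). Ctgf rose from 15.2 and 14.6 to 60.4 and 59.96 RPKM (1.95 ± 0.04). Amotl2, a binding partner of YAP, rose from 37.97 and 32.8 to 105 and 102 RPKM (1.52 ± 0.07, adjusted p = 1.65e-06). Tagln, a smooth-muscle actin-binding gene, went from 8.78 and 8.98 to 48.4 and 44.7 RPKM (2.27 ± 0.06). Tagln2 was called lower as deposited (-0.11 ± 0.04) but not after scaling (-0.02), nor without the second untreated (-0.07) or either arsenite library (-0.13 and -0.10). Nor was it called with the replicate number as a block, without the filter on low values or without the trend in eBayes. Annexin and S100 genes, whose proteins bind calcium, had 12 of 13 higher and 1 lower, Anxa3 furthest, from 5.79 and 6.61 to 30.6 and 30.4 RPKM (2.13 ± 0.07). The fall was S100a13 (12.5 and 9.94 to 5.83 and 7.21 RPKM, -0.70 ± 0.12).

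Of 18 junction genes tested, 12 were higher and 4 lower, against 40.7% and 27.0% of all genes. The 4 claudins rose, Cldn6 furthest, from 46.1 and 43.9 to 129 and 129.8 RPKM (1.51 ± 0.04). The adhesion molecule gene Jam2 fell from 54.2 and 53.6 to 6.12 and 6.20 RPKM (-2.94 ± 0.05, adjusted p = 1.09e-07). Cdh1, E-cadherin, was not called as deposited (115 and 109 to 117 and 117 RPKM, 0.06 ± 0.04) and was called higher after scaling (0.17). Cdh2, N-cadherin, rose from 1.72 and 1.61 to 6.33 and 6.22 RPKM (1.45 ± 0.08).

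Among imprinted genes, 18 expressed from the paternal allele were listed and 11 passed the filter. As deposited, 8 of these 11 rose and 0 fell, against 40.7% higher and 27.0% lower over all genes. A member under 1 RPKM untreated could enter only by its arsenite level. Peg10, a retrotransposon-derived gene at chr6:4747306-4760517, rose from 36.9 and 38.5 to 299 and 320.1 RPKM (3.003 ± 0.05). Its neighbour Sgce rose from 6.61 and 6.27 to 22.03 and 20.8 RPKM (1.59 ± 0.06). Mest rose from 1.88 and 1.995 to 7.32 and 7.98 RPKM (1.56 ± 0.08, adjusted p = 4.65e-06). After scaling 7 of the paternally expressed genes were higher and 2 lower. Of 10 maternally expressed genes tested, of 12 listed, 4 rose and 5 fell. Grb10 went from 108 and 108 to 57.1 and 60.2 RPKM (-0.86 ± 0.04). Meg3 fell from 15.6 and 20.4 to 10.8 and 10.8 RPKM (-0.68 ± 0.11). H19 rose from a low base, 0.414 and 1.01 to 4.75 and 5.43 RPKM (1.85 ± 0.16). The libraries do not tell alleles apart.

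Targets of p53 rose in 18 of 23 cases and fell in 3, the same counts after scaling, while Trp53 itself was lower as deposited (328 and 315 to 287 and 270.3 RPKM, -0.21 ± 0.04) and not called after scaling. Perp, a desmosome protein, rose from 25.8 and 23.0 to 85.8 and 79.8 RPKM (1.72 ± 0.06). The polo-like kinase gene Plk3 rose from 14.6 and 14.7 to 35.7 and 35.0 RPKM (1.22 ± 0.05). Its relative Plk2 rose from 31.9 and 28.9 to 69.4 and 72.8 RPKM (1.20 ± 0.06). Mdm2, the ligase that degrades p53, rose from 86.7 and 83.0 to 166 and 167 RPKM (0.97 ± 0.04). Cdkn1a, which encodes p21, rose by less (41.8 and 39.4 to 57.7 and 55.1 RPKM, 0.46 ± 0.05, adjusted p = 9.47e-05), and Pmaip1, the NOXA gene, fell (19.95 and 19.8 to 16.9 and 15.99 RPKM, -0.26 ± 0.05).

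Cell cycle genes differed in direction. Of 7 inhibitors of G1 kinases, 5 were higher and 2 lower as deposited, and 4 and 2 after scaling. The lower ones were Cdkn1b and Cdkn1c (-0.38 and -0.32). Cdkn2a went from 9.92 and 8.82 to 25.7 and 24.4 RPKM (1.33 ± 0.07). Cdkn2b went from 2.12 and 2.70 to 8.44 and 8.44 RPKM (1.47 ± 0.10). Cdkn2d of the same INK4 family rose by less (0.32 ± 0.06), and the call of Cdkn2c (0.56 ± 0.14) was lost after scaling (0.33) and without the first arsenite library (0.41). Ccnd1, cyclin D1, fell from 13.9 and 13.05 to 7.35 and 6.42 RPKM (-0.88 ± 0.08). Replication genes had 10 of 14 lower and 1 higher. Mcm7 of the helicase fell from 249 and 246 to 138 and 128 RPKM (-0.89 ± 0.05, adjusted p = 3.52e-06). Mitotic genes had 7 of 22 higher and 6 lower after trimmed-mean scaling. As deposited 12 were higher and 5 lower, and 14 and 3 after quantile scaling. The count lower was 3 without either untreated library and 2 without the second arsenite library. Kif20a, a mitotic kinesin, rose from 51.3 and 50.3 to 82.1 and 85.8 RPKM (0.71 ± 0.04). The histone genes were lower in 12 of 27 tested and 16 after scaling, of 68 listed. Their RNA largely lacks poly(A) tails, and the way these libraries selected RNA is not stated.

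Of 26 genes of PML bodies, SUMO and the TIF1 family, 5 were higher and 13 lower. Pml was at 53.999 and 51.5 RPKM untreated and 51.9 and 51.5 with arsenite and was not called as deposited (-0.03 ± 0.04, adjusted p = 0.564), but was called lower after trimmed-mean scaling (-0.13). Trim33 was at 14.8 and 16.1 RPKM untreated and 13.5 and 14.6 with arsenite (-0.13 ± 0.07, adjusted p = 0.122), and was called lower after quantile (-0.22, adjusted p = 0.0198) and trimmed-mean scaling (-0.22). Sumo2 rose from 38.5 and 41.6 to 135 and 136 RPKM (1.74 ± 0.05, adjusted p = 2.32e-07). Of its words 30.2% recur in 14 other genes. Sumo3 fell from 67.7 and 63.9 to 46.7 and 44.4 RPKM (-0.52 ± 0.05). Rnf4, the ligase that marks SUMO-bearing PML for degradation after arsenic, fell from 115 and 109.6 to 87.2 and 84.3 RPKM (-0.39 ± 0.04). Daxx, a resident of PML bodies, rose from 34.1 and 32.6 to 50.99 and 50.3 RPKM (0.59 ± 0.04). Trim28, a relative of Trim33, fell from 792 and 773 to 559 and 547 RPKM (-0.50 ± 0.04).

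Several of the largest changes fell in no list. Sct, the gene of the hormone secretin, rose from 2.77 and 3.71 to 38.7 and 36.2 RPKM (3.19 ± 0.10). Syt13, a synaptotagmin, rose from 0.862 and 0.847 to 14.04 and 17.1 RPKM (3.15 ± 0.10, adjusted p = 5.70e-07). Rbp7, a retinoid-binding protein, rose from 1.32 and 0.669 to 10.3 and 10.8 RPKM (2.56 ± 0.15), and Cpz, a carboxypeptidase, from 0.673 and 0.731 to 7.94 and 8.39 RPKM (2.43 ± 0.09). Syt13 and Cpz passed the filter only by their arsenite levels, which fixed their directions. Tinagl1, a matrix protein, rose from 4.25 and 4.73 to 29.8 and 30.7 RPKM (2.51 ± 0.07). Afap1, an actin filament binder, rose from 4.64 and 4.09 to 27.6 and 28.2 RPKM (2.43 ± 0.07).

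On the other side, Cobl, an actin nucleator, fell from 48.8 and 48.7 to 8.23 and 8.07 RPKM (-2.44 ± 0.05, adjusted p = 1.63e-07). Pdzd4 on the X chromosome fell from 20.04 and 20.5 to 3.07 and 3.08 RPKM (-2.38 ± 0.06). Fam25c went from 15.8 and 20.1 to 1.69 and 1.82 RPKM (-2.77 ± 0.11). Pga5, a pepsinogen, passed the filter only by its untreated level, which fixed its direction. It went from 5.63 and 7.19 to 0.302 and 0.0885 RPKM (-2.63 ± 0.14). No gene was at 0 in both libraries of one group and at 5 RPKM or more in both of the other, so these were shifts in level of genes detected in both.

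Counts over large families depended on the scaling. Of 186 solute carriers tested, 93 were higher and 43 lower as deposited, and 69 and 53 after scaling. Over all genes the shares were 40.7% and 27.0% as deposited, and 31.6% and 32.8% after scaling. The zinc finger genes named Zfp turned over: 94 of 294 were higher and 61 lower as deposited, but 50 higher and 97 lower after quantile scaling. With trimmed-mean scaling 75 were higher and 81 lower. Without the second arsenite library 62 were higher as deposited. Zfp42, which encodes REX1, a marker of the naive state, fell from 628 and 609 to 146 and 136 RPKM (-2.13 ± 0.04). Zfp296, a stem cell factor, fell from 58.5 and 53.1 to 20.4 and 21.99 RPKM (-1.36 ± 0.06, adjusted p = 1.90e-06), and both were also called lower after scaling (-1.95 and -1.37).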

How the data were processed

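The authors deposited RPKM values per gene symbol, and the deposited RPKM table was the input here. Per the submitters' processing notes, featureCounts 2.0.1, Bowtie2 2.3.3, DESeq2, SAMtools 1.9 and FastQC 0.11.5 were used with build mm10, and their roles are not given. Whether counting used strand is not stated, so overlapping and antisense genes cannot be told apart. The untreated columns, labelled C, were matched to the remaining untreated group, whose titles use N. Of 24421 names, 27 that a spreadsheet had turned into dates were left out.

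Genes with at least 1 RPKM in at least 2 of the 4 libraries (12136) were tested on log2(RPKM + 1) with limma 3.58.1 in R 4.3.3 (lmFit and eBayes with a trend, 2 residual degrees of freedom) and Benjamini-Hochberg adjustment over all genes. The values do not allow a count model. The fit was also run on simulated data in which few genes changed and no scaling shift was built in. That run therefore does not vouch for the calls here. On the real data the fit was repeated after quantile scaling of the 4 libraries, after trimmed-mean scaling and under the alternatives of the closing section. Depth was recovered from the steps between low values, of which 92.8% to 94.7% under 20 reads were whole within 0.05, and intervals from it would cover counting error only.

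Genes named in the text are Pml, Trim33, Lefty1, Lefty2, the 15 largest rises and 15 largest falls called under both scalings with a group mean of at least 5 RPKM, and members of 53 gene lists and 12 families. Some of them are not reported here. The comparison, the lists and the rule were chosen with earlier results of these data known. Positions and transcript lengths come from GENCODE vM21 on GRCm38. Sharing was measured as 50-base words of the annotated transcripts found in other genes. Promoters (250 bases before to 50 after the start) come from RefSeq on GRCm38.p6, and motif shares use the 7298 tested genes with 1 entry, with both strands searched. Tables were handled with Python 3.11.15, pandas 2.3.3 and NumPy 2.4.6, and plots drawn with Matplotlib 3.10.9.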

Additional observations from a re-analysis of the deposited data

How the results depend on the processing

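With 2 libraries per group and 2 residual degrees of freedom, calls rest on a spread borrowed across genes, and a gene that was not called is not shown to be unchanged. As deposited, 4939 genes were called higher and 3282 lower (60.1% higher of those called), against 3833 and 3982 after quantile scaling (49.0%) and 3968 and 4240 after trimmed-mean scaling (48.3%). Counts of large changes moved most. Genes at least 2-fold higher numbered 611 as deposited, 404 after quantile scaling and 1129 with a pseudocount of 0.1, and genes at least 2-fold lower numbered 265 as deposited and 402 with that pseudocount. After quantile scaling a pseudocount of 0.1 gave 699 higher and 598 lower. A smaller pseudocount enlarges the log differences of genes at low levels.

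Leaving out 1 library at a time gave 6420 to 7482 called genes as deposited and 5825 to 6640 after quantile scaling. It gave 467 to 625 genes at least 2-fold higher and 235 to 300 at least 2-fold lower as deposited. The replicate numbers do not pair the libraries by any label, and the replicate differences of the groups had a correlation of -0.0361 across genes. With the replicate number as a block 8188 genes were called, against 8221 without it. Of the 238 called genes named in the text, 2 lost their call, Id4 and Tagln2.

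Of those 238 genes, 227 kept direction and call after quantile scaling and 231 after trimmed-mean scaling, and of the named genes not called as deposited 4 and 9 gained a call in the same direction. The difference of Hsp90b1 turned to 0.06 and that of Slc2a1 to 0.12 after quantile scaling, while trimmed-mean scaling called Slc2a1 lower (-0.14), and that of Gapdh ran from -1.10 to 0.79 over the left-out libraries. The causes were not tested. With a pseudocount of 0.1, 237 genes kept their call, without a filter on low values 230, and without the trend in eBayes 232. Of the 220 that passed a filter in all 4 libraries, 220 did. Leaving out 1 library kept 225 to 230 of 231 or 232 called genes that could be fitted. Counts of 1 or 2 called members in a list moved by up to 2 when 1 library was left out.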

Other observations

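Interferon-induced transmembrane genes, which restrict viral entry and are abundant in ES cells, fell. Ifitm1 went from 171 and 158 to 46.1 and 42.5 RPKM (-1.87 ± 0.05). Ifitm3 went from 67.8 and 75.0 to 25.6 and 24.96 RPKM (-1.46 ± 0.05). Ifitm2 went from 364 and 372 to 164 and 143 RPKM (-1.26 ± 0.06). B2m, the light chain of MHC class I, rose from 19.02 and 19.96 to 41.7 and 45.8 RPKM (1.13 ± 0.06). The peptide transporter Tap1 rose from 3.48 and 3.27 to 7.75 and 7.84 RPKM (1.01 ± 0.08). The polycomb genes had 7 of 11 lower and 2 higher as deposited, and 7 and 1 after scaling. Phf19, a polycomb accessory factor, rose from 5.19 and 5.73 to 17.1 and 18.01 RPKM (1.52 ± 0.07).

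Scd1, a fatty acid desaturase, fell from 10.4 and 9.66 to 2.67 and 2.88 RPKM (-1.55 ± 0.08). The regulator Srebf1 rose from 14.7 and 14.9 to 24.2 and 24.9 RPKM (0.69 ± 0.05). Cholesterol genes had 11 of 23 lower and 2 higher as deposited, and 14 and 1 after quantile scaling. Without the first library of either group 7 were lower as deposited. Insig1, which holds back sterol synthesis, fell from 15.4 and 15.6 to 10.54 and 10.2 RPKM (-0.54 ± 0.06). Of the autophagy genes, the LC3 relative Gabarapl1 rose from 20.6 and 18.8 to 33.4 and 34.1 RPKM (0.75 ± 0.05). Tfeb, a lysosome regulator, fell from 19.2 and 18.4 to 10.8 and 9.63 RPKM (-0.83 ± 0.07). Among proteasome genes 15 of 43 were lower and 11 higher, against 27.0% and 40.7% of all genes. The counts were 14 and 14 after quantile scaling, and 24 and 7 after trimmed-mean scaling. The assembly factor Psmg4 fell furthest, from 36.1 and 34.5 to 17.1 and 14.5 RPKM (-1.11 ± 0.07).

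The other lists are given by their counts as deposited and after scaling. Of 77 mitochondrial ribosomal protein genes, 37 were lower and 12 higher, and 39 and 13 after scaling, with 6 higher as deposited without the first arsenite library. Of 74 annotated snoRNAs tested, of 110 listed, 32 were lower and 8 higher (34 and 4 after scaling), and 5 and 4 were higher without the first and the second arsenite library. Nonsense-mediated decay factors had 1 of 8 higher and 4 lower, and 1 and 3 after scaling. Ubiquitin genes had 4 of 7 higher and 1 lower, and 4 and 1 after scaling. The NF-kB list had 4 of 6 higher and 2 lower, and 2 and 2 after scaling. Keratins had 4 of 7 tested higher and 1 lower, of 48 listed, and 4 and 2 after scaling. Germline genes turned over with quantile scaling, with 5 of 11 higher and 3 lower as deposited but 3 higher and 6 lower after it. With trimmed-mean scaling 5 were higher and 4 lower. Fatty acid genes had 6 of 10 higher and 3 lower, and 6 and 4 after scaling. Of the genes named, Tagln (48.3%), Ifitm2 (48.5%), G3bp2 (46.7%) and Gbx2 (43.0%) also have many 50-base words that recur in other genes.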
